A study of Homo sapiens with 80 samples.

Results

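The transcriptome of Jurkat T cells at 1 g, without centrifugation, was described from the 12 control libraries of a hypergravity experiment, out of 80 libraries in the series. They were chosen by their treatment label, which reads Ctrl in 6 libraries (numbers 1 to 6) and Ctrl60 in 6 libraries (numbers 7 to 12). Jurkat is a leukaemic T lymphocyte line, and the cells were clone E6-1, grown in medium with serum and antibiotics. Ctrl cells stood in serological pipettes at 1 g for 15 min and Ctrl60 cells for 60 min before lysis. The remaining 68 libraries came from cells exposed to 9 g, from cells centrifuged at 300 g with their own controls, and from heat-shocked cells. Ribosomal RNA was depleted and the library kit kept the strand, so that RNAs without a poly(A) tail were also counted. The column names of the Ctrl60 libraries mention HEPES, a pH buffer, and the labels do not say whether Ctrl contained it. Standing time, buffer and library number change together between both groups and cannot be told apart. Nothing in the labels says that the libraries came from separate cultures, so p-values measure the spread between these libraries, which may be technical, and all cells were of 1 clone.

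T cells recognise antigen through the T cell receptor, a pair of variable chains held in the membrane by the CD3 chains and zeta. The kinases LCK and ZAP70 carry the signal inwards. Jurkat cells descend from a T cell leukaemia and divide rapidly, and the line became a standard model of receptor signalling. A total RNA library also holds histone mRNA, which ends in a stem-loop and not in a poly(A) tail and is made while DNA is copied, and small structural RNAs such as 7SL, the RNA of the signal recognition particle that guides secreted proteins to the membrane.

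Total counts ran from 26774928 to 36083081 read pairs per library, with a mean of 33498666 ± 3139323 (SD, n = 6) in Ctrl and of 30431677 ± 2677751 (SD, n = 6) in Ctrl60. Levels are given as CPM, the counts of a gene per 1000000 counts of its library, and the order of genes within a list as CPM per kb of the exon length in the table. That length merges the exons of all annotated transcripts of a gene, so an order per kb also depends on the annotation. Thresholds and sums over lists are in CPM. Read pairs carry no molecular identifiers, so a limit from counting covers counting error only. Of 60663 genes, 13133 reached a mean of 1 CPM, 8588 reached 10 CPM, 2080 reached 100 CPM and 98 reached 1000 CPM. Protein-coding genes held 92.3% ± 0.304 (SD, n = 12) of the counts. The 1000 most abundant genes together held 58.4% ± 1.08 (SD, n = 12).

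A single RNA dominated every library. RN7SL1, the 7SL RNA gene on chromosome 14 (bases 49586580 to 49586878 of GRCh38, plus strand; ENSG00000276168), took from 4.92% to 5.89% of all counts. Its level was 182304 CPM per kb ± 10169 (SD, n = 12), which was 40.2 times the level of H1-5, the next gene in that order.

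RN7SL1 and RN7SL2, a near-identical copy on the same chromosome, were 5 edits apart in GENCODE release 29 over 299 and 300 bases, and 53.0% of the 100-base windows of RN7SL1 occurred unchanged in RN7SL2. RN7SL2 had 0 counts in all 12 libraries. The counting program leaves out reads that map to several places, so the sum of both copies is uncertain and the split between them cannot be read as expression. RN7SK, the 7SK RNA that holds back the elongation factor P-TEFb, and RPPH1, the RNA of ribonuclease P, were likewise listed at 0 in all 12 libraries. With the settings in the file header the program also leaves out reads that overlap exons of 2 genes on the same strand. RN7SL2, RN7SK and RPPH1 each shared 100% of their exon bases with another gene in the table. Their zeros are therefore not read as absence, and these genes were chosen after their values were seen.

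Read per kb, the 20 highest genes comprised 10 replication-dependent histone genes, 6 genes of the mitochondrial genome, RN7SL1, SNORD3A, GAPDH and ACTB. The linker histone gene H1-5 had 4541 CPM per kb ± 214 (SD, n = 12) and the core histone gene H3C2 had 4075 CPM per kb ± 178 (SD, n = 12). H1-3 lay at 2533, H1-2 at 2196, H1-4 at 2134, H2BC12 at 2120, H4C3 at 1889 and H4C6 at 1806 CPM per kb. The ranges of H1-2, H1-4 and H2BC12 overlapped. All 67 replication-dependent histone genes in the table had counts, 52 of them at 10 CPM or more, and together they held from 3.64% to 4.18% of all counts. SNORD3A, the U3 small nucleolar RNA that acts in ribosomal RNA processing, stood at 3323 CPM per kb ± 191 (SD, n = 12), between H3C2 and GAPDH.

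The 120 bases before the RefSeq start of both leading histone genes are shown with promoter elements that are common in the histone family. Capitals mark the motif CCAAT, on whichever strand it was found, and the motif TATAAA. In these bases TATAAA was found for H3C2 and not for H1-5. The coordinates are chr6:27867589-27867708 for H1-5 and chr6:26032100-26032219 for H3C2, both on the minus strand of GRCh38.p14.
H1-5: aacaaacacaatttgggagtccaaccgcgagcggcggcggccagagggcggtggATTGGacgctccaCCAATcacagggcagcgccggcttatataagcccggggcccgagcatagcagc
H3C2: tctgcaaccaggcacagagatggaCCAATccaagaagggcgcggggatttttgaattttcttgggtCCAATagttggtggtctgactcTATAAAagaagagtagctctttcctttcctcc

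Among 68 replication-dependent histone promoters in RefSeq, 85.3% held CCAAT on either strand within 250 bases before the start, against 32.0% of all 35116 promoters. TATAAA was found in 66.2% of them against 10.7% of all promoters. For 77 promoters of ribosomal protein genes these shares were 29.9% and 6.49%. Such a match is a description of the letters, not a measured binding site.

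The share of the counts that a gene takes also rises with its length. In the order of these shares, given in CPM, RN7SL1 was followed by ACTB (11463 CPM ± 397, SD, n = 12), the translation factor EEF1A1 (8936 ± 410), the glycolytic enzyme GAPDH (6442 ± 271), the translation factor EEF2 (5290 ± 212), the tubulin gene TUBB (4543 ± 194), ACTG1 (4496 ± 181) and TUBA1B (3875 ± 221). H1-5, ENO1, PKM, RPLP0, MT-CO1, FLNA, HSP90AB1, RPS2, SNORD3A, RPL13A, RPS3 and RPL4 completed the first 20, from 3619 down to 2125 CPM. Per kb of merged exon length the order differed, since GAPDH (2689 CPM per kb) and ACTB (2602) exceeded EEF1A1 (888). That length was 10063 bases for EEF1A1, 4405 for ACTB and 2396 for GAPDH, so this order also depends on the annotation. The 86 ribosomal protein genes together held 6.72% ± 0.235 (SD, n = 12) of the counts, and 81 of them reached 10 CPM. Among long noncoding RNAs, MALAT1, which stays in the nucleus, ranged from 349 to 981 CPM, and SNHG29, a host gene of small nucleolar RNAs, from 485 to 567 CPM, both chosen after their values were seen.

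**Figure D1:**
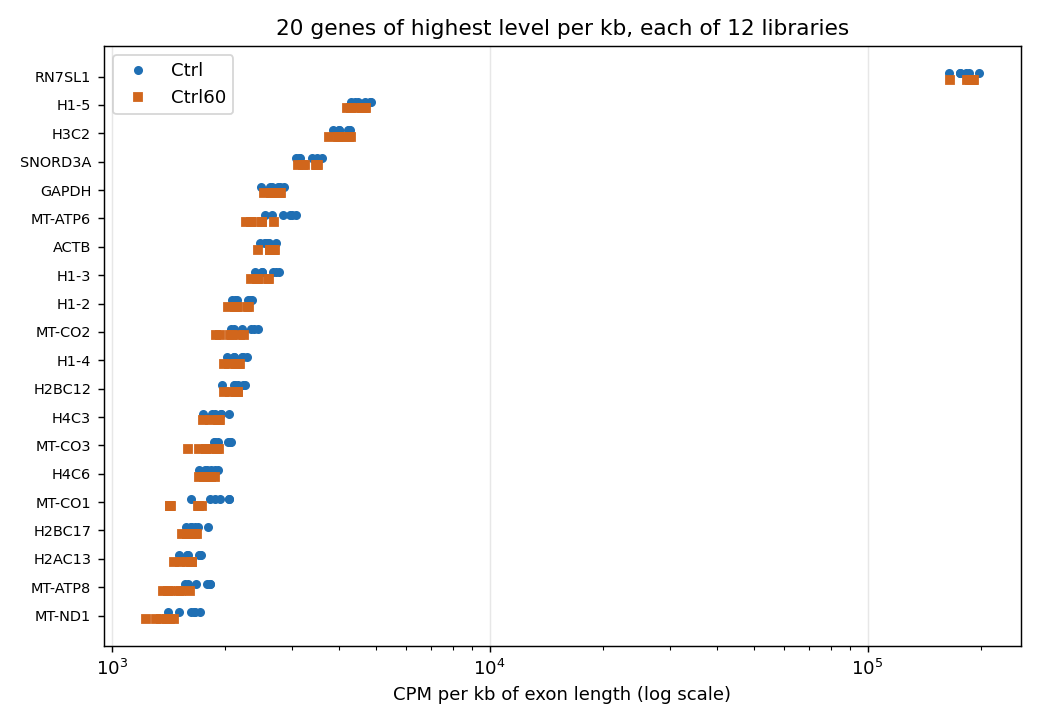
Level of the 20 genes of highest mean CPM per kb of exon length (horizontal log axis), with 1 point per library, circles for Ctrl and squares for Ctrl60 (6 libraries each). RN7SL1 lies far to the right at 182304 CPM per kb on average, 10 histone genes and 6 mitochondrial genes fill most of the remaining rows, and all lie above 1000 CPM per kb.

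The defining markers of a T lymphocyte, the cell type in the labels, were present in every library. TRBC1, which encodes a constant region of the receptor beta chain, had 716 CPM in its lowest, 776 in its median and 813 in its highest library. CD3E ranged from 540 to 605 CPM with a median of 575, and CD3D from 414 to 503 with a median of 460. None of the 12 libraries stood apart in these 3 genes, and Ctrl and Ctrl60 overlapped in each.

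Per kb, TRBC1 was the highest of the receptor genes at 1022 CPM per kb ± 39.6 (SD, n = 12), followed by CD3D at 598 ± 31.1. Then came CD3E at 215 ± 9.51, TRBC2 at 195, TRAC at 88.6, CD3G at 66.5 and CD247, the zeta chain, at 47.0 CPM per kb. The ranges of TRBC1, CD3D and CD3E did not overlap, so that this order held in every library. TRBC1 and TRBC2 encode near-identical constant regions, and reads that map to both were not counted. The constant region of the delta chain, TRDC, had 0 counts, and those of the gamma chain, TRGC1 and TRGC2, reached 0.0528 and 0.630 CPM. PTCRA, the pre-T alpha chain of immature thymocytes, was read at 15.7 CPM. Of the co-receptors, CD4 had 18.9 CPM ± 1.04 (SD, n = 12), CD8A 0.544 CPM and CD8B 0.761 CPM.

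Most kinases and adaptors downstream of the receptor were well covered. Of 16 signalling genes, 13 reached 10 CPM and together the list summed to 3257 to 3448 CPM per library. LCK, the kinase that phosphorylates the CD3 chains, had 1178 CPM in its lowest, 1260 in its median and 1314 in its highest library. ZAP70, the kinase that binds the phosphorylated chains, ranged from 609 to 651 CPM and PLCG1, the phospholipase of the pathway, from 284 to 306 CPM. SYK, a kinase related to ZAP70 that is best known from B cells, was present at 165 CPM. The adaptor LAT, to which ZAP70 passes the signal, had 5.22 CPM, from 3.10 to 7.05. Of its exon bases 47.7% were shared with another gene on the same strand, where reads are not counted, so this value is a lower limit. The kinase gene TXK lay at 0.203 CPM.

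Of 21 surface receptor genes, 14 reached 10 CPM, with CD1E (167 CPM per kb), the chemokine receptor gene CXCR4 (150 CPM per kb) and CD7 (78.6 CPM per kb) among the highest per kb. The lipid-presenting CD1 molecules are carried by cortical thymocytes, and CD1A, CD1B, CD1C and CD1D all lay between 32.3 and 99.9 CPM. Several receptors of activated T cells were low, with IL2RA at 0.0999, PDCD1 at 0.544, ICOS at 0.482 and CTLA4 at 0.00246 CPM. These were the 4 genes of the list below 1 CPM, and CD69, another such receptor, was not among them. The co-stimulatory receptor CD28 was read at 62.8 CPM. PTPRC, which encodes the phosphatase CD45, had a median of 83.0 CPM, but ranged from 69.4 to 147.

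Per kb, the highest of the transcription factors of the T lineage was LEF1 at 119 CPM per kb ± 3.80 (SD, n = 12), followed by TCF3 at 74.7 ± 1.89 and TCF7 at 62.5 ± 2.50. The ranges of these 3 genes did not overlap. Of 23 genes in that list, 15 reached 10 CPM. TAL1, an erythroid and stem cell factor that is silent in mature T cells and a known T leukaemia oncogene, was read at 247 CPM ± 7.78 (SD, n = 12). Its partner gene LMO1 had 7.98 CPM, LMO2 had 0.0440 CPM, and TLX1 and TLX3, oncogenes of other T leukaemias, had 0 counts in all 12 libraries. The 6 genes of recombination and thymocyte stage were all present. DNTT, the enzyme that adds bases at receptor gene joints, had 119 CPM ± 4.59 (SD, n = 12), RAG1 24.1 CPM and RAG2 9.05 CPM, while the stem cell antigen CD34 was read at 2.99 CPM.

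Of 14 genes of effector and helper T cells, 1 reached 10 CPM, 4 lay between 1 and 10 CPM, 5 had counts but less than 1 CPM and 4 had none, and the list summed to 34.5 to 40.2 CPM. PRF1, the gene of the pore-forming protein perforin, lay at 6.92, CD40LG at 5.89 and GZMA at 4.65 CPM. IL2, IFNG, IL17A and FASLG had 0 counts in all 12 libraries. With 383582061 counts in the sum, 0 counts allow a level of up to 0.00782 CPM (3 counts over the 12 libraries).

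Markers of other cell types were near 0, with 5 genes above 1 CPM. CD79A, a signalling chain of the B cell receptor, was the clear exception in the B cell list at 60.9 CPM, from 56.4 to 64.5 over all libraries, while MS4A1 lay at 0.00544, CD79B at 0.0394 and PAX5 at 0.0184 CPM and IGKC at 0. The B cell list summed to 59.2 to 67.6 CPM per library, nearly all of it CD79A. In the myeloid list, 1 of 10 genes passed 1 CPM, the transcription factor gene CEBPA at 11.1 CPM, while MPO, CSF1R, SPI1 and LYZ were below 0.1 CPM, and the list summed to 10.6 to 12.5 CPM. CD68 of that list shared 81.6% of its exon bases with another gene on the same strand, so its 0.0874 CPM is not read as absence. Of 7 natural killer cell genes, NKG7 reached 3.30 CPM and the sum was 3.32 to 4.52 CPM. Of 8 erythroid and platelet genes, 5 had no count, and the sum was at most 0.118 CPM. Of 10 epithelial, fibroblast and liver genes, COL1A1 reached 5.61 CPM, EPCAM, KRT5 and TTR had no count, and the sum was 5.00 to 6.68 CPM. EBF1, a B cell factor, was the remaining gene at 1.51 CPM.

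**Figure D2:**
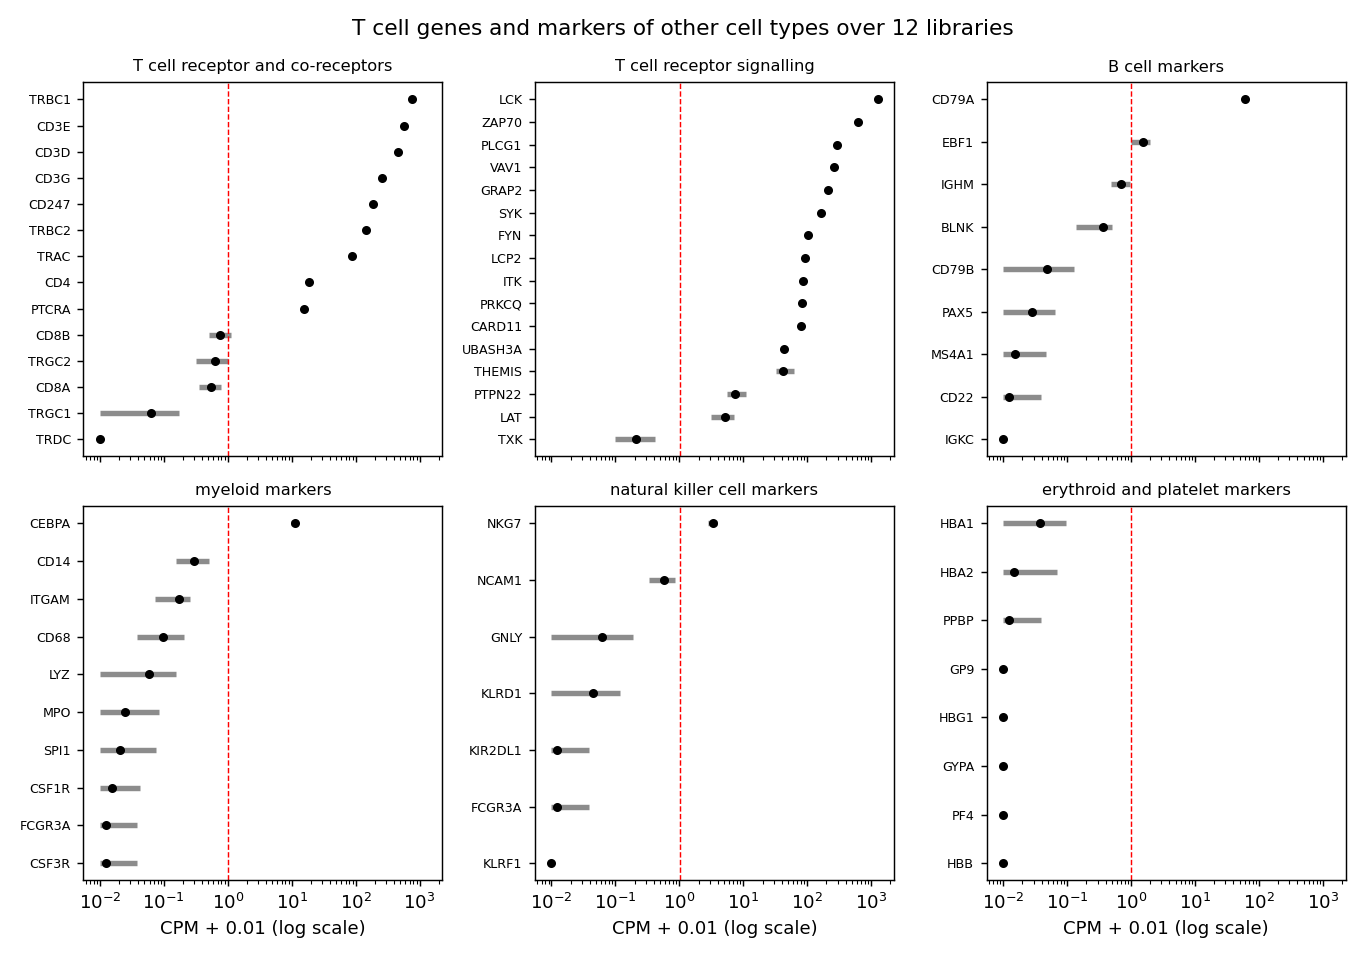
Levels of genes from 6 lists over the 12 libraries (horizontal log axis, CPM + 0.01), with dots for the mean and grey bars from the lowest to the highest library. The red dashed line marks 1 CPM. Most T cell receptor and signalling genes lie right of the line, with TRBC1 at 777 and LCK at 1259 CPM, whereas in the other 4 lists only CD79A, EBF1, CEBPA and NKG7 do.

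In the 12 libraries 26673 genes had 0 counts. Of these, 18339 also had none in the other 68 libraries, and 8334 had at least 1 count there but never more than 0.340 CPM. Among 19889 protein-coding genes of the annotation used here, 3473 (17.5%) had no count, and 367 of the 3473 shared at least 40% of their exon bases with another gene on the same strand. Olfactory receptors made up the largest of the families looked at, with 336 of 389 genes (86.4%) at 0. Keratin-associated proteins had 86 of 94 genes at 0, beta-defensins 35 of 39, and late cornified envelope genes 17 of 19. All 22 PRAMEF genes and all 13 interferon alpha genes were at 0. By contrast, 16 of 56 cytochrome P450 genes and 6 of 27 taste receptor genes had no count. The families were chosen after their values were seen.

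The interferon genes were part of a longer stretch of chromosome 9 without counts. From FOCAD to CAAP1, 26 protein-coding genes lie in between, and 24 of them had 0 counts in all 12 libraries, in 1 uninterrupted run from IFNB1 to IZUMO3 (bases 21077104 to 24545946 of GRCh38). The run held 16 interferon genes together with KLHL9, MTAP, CDKN2A, CDKN2B, DMRTA1, ELAVL2, IZUMO3 and an unnamed gene (ENSG00000264545) that spans MTAP. The unnamed gene shared all its exon bases with other genes on the same strand and MTAP 7.87%, whereas the other 22 genes shared none. MTAP encodes a methionine salvage enzyme that most tissues make, and CDKN2A and CDKN2B encode inhibitors of the kinases CDK4 and CDK6. On the left, FOCAD was read at 74.9 CPM ± 3.29 (SD, n = 12) and HACD4 at 4.60 CPM ± 0.947. On the right, TUSC1 had 1 count and CAAP1 16.1 CPM ± 2.08. Over the other 68 libraries, 2 of the 24 genes had any count, IFNB1 with 6 and MTAP with 2. Counts do not tell a lost gene from a silent one, and except for CDKN2A and CDKN2B these genes were chosen after their values were seen.

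**Figure D3:**
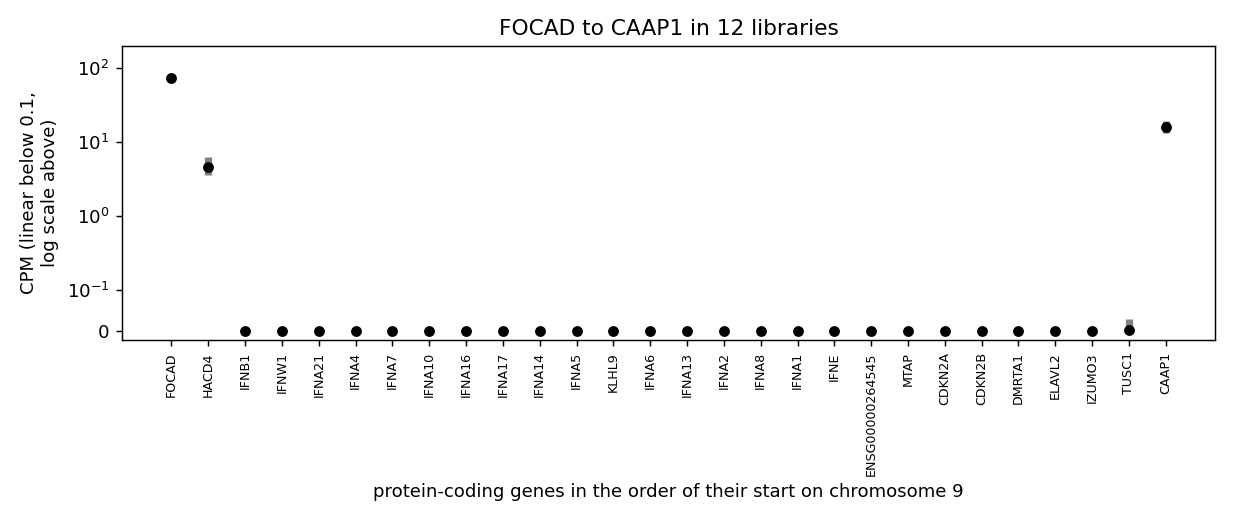
Mean CPM (dots) with the lowest and highest of the 12 libraries (grey bars) for protein-coding genes in the order of their start on chromosome 9. The vertical axis is linear below 0.1 and logarithmic above. Between HACD4 (4.60 CPM) and CAAP1 (16.1 CPM), 24 genes lie at 0 and TUSC1 next to it at 0.00246.

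Other genes of the tumour suppressor list were expressed. The lipid phosphatase gene INPP5D was read at 21.3 CPM ± 2.08 (SD, n = 12), BAX, which promotes cell death, at 41.3 and the mismatch repair gene MSH6 at 68.0 CPM. These counts say nothing of protein or of mutations. The hypoxia list held LDHA, a glycolytic enzyme, at 1350 CPM and the heat shock list HSP90AB1, a chaperone, at 2494 CPM. Of 9 sterol synthesis genes, 8 reached 10 CPM, FDFT1 among them at 607 CPM. In the heat shock list HMOX1 had no count. HSPA1A lay at 0.241 CPM and HSPA1B at 11.9 CPM, but 69.9% of the 100-base windows of HSPA1A occur unchanged in HSPA1B, so the split between these copies is uncertain. Of the amino acid response genes, ATF4 stood at 539 CPM, PHGDH at 311 CPM and asparagine synthetase (ASNS) at 0.281 CPM, a lower limit, since 49.3% of the exon bases of ASNS were shared with another gene on the same strand.

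The libraries were close to each other. Over the 8588 genes of at least 10 CPM, the median coefficient of variation (CV, the SD over the mean of the 12 libraries) was 5.38%, with quartiles of 3.98% and 9.15%. Counting alone would give a median of 2.67%. Within Ctrl the median was 4.97%, and within Ctrl60 it was 5.68%. The 10 steadiest genes had CVs between 1.28% and 1.64%, with MAN1B1, a mannosidase of the secretory pathway, from 68.7 to 71.3 CPM, EIF2B5, a subunit of a translation factor, from 105 to 111 CPM, and the histone variant gene MACROH2A1 from 529 to 554 CPM. DGCR8, STK25, SLC12A7, NCAPH, NUP205, FBH1 and PARD3 were the other 7. The 12 genes commonly used as references had a median CV of 4.16%, with B2M at 8.19% and HPRT1 at 9.21%.

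MT-RNR1 and MT-RNR2, the mitochondrial ribosomal RNAs of 954 and 1559 bases, varied most, with CVs of 158% and 166%. MT-RNR1 had between 10 and 2552 counts per library. Both are among the targets of ribosomal RNA depletion kits, and apart from the mitochondrial share given with the contrast, their part in any other result was not tested. They were followed by DGKH (49.0%), LRRC58 (47.9%), ASPM, VPS13C, SYNE2, TPR, LPP and NEAT1 (43.5%). VPS13C, a lipid transfer protein, was read at 36.7 CPM in the lowest and 135 CPM in the highest library. The 652 genes with a CV above 20% had a median GC content of 38.7% and a median exon length of 9186 bases, whereas the 3806 genes with a CV below 5% had 53.7% and 5119 bases.

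These genes moved together in 4 libraries. In libraries 2 and 3 of Ctrl and 9 and 10 of Ctrl60, between 98.9% and 99.8% of the 652 genes lay above their mean of 12 libraries, against 0.153% to 6.60% in 7 libraries and 64.3% in library 5. Among genes in the lowest of 5 equal bins of GC content (31.3% to 41.6%), the median log2 deviation from the mean was 0.36 in library 9, 0.30 in library 3, 0.15 in library 10 and 0.11 in library 2. In the other 8 libraries it ranged from -0.20 to 0.01. Both groups held 2 of these libraries. They were picked by this deviation, so the next values describe that choice and test nothing. Without them, the median CV was 4.51% and 16 genes in place of 652 exceeded 20%. After removal of a smooth curve against GC content in each library, 93 genes exceeded 20%.

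**Figure D4:**
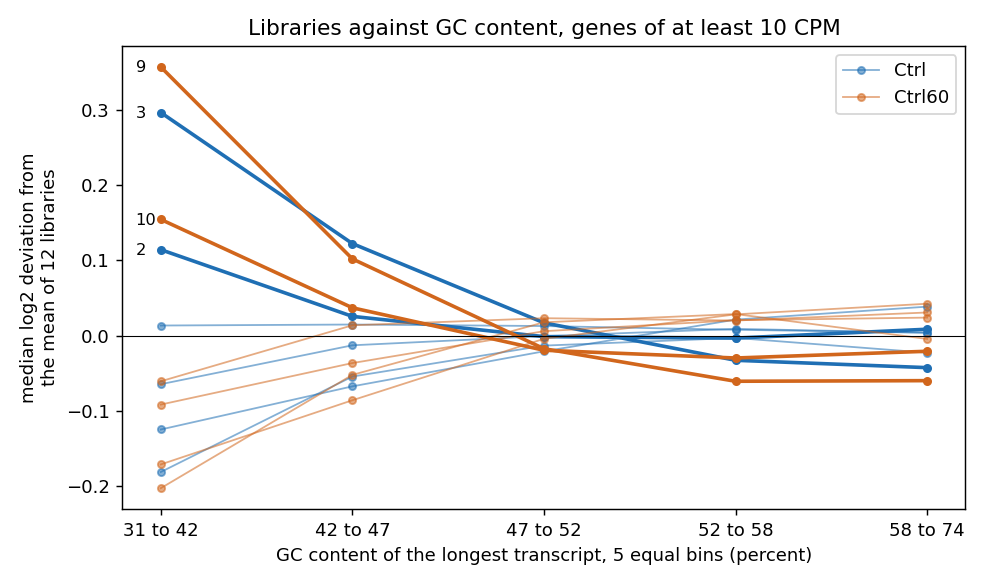
Median log2 deviation of each library from the mean of the 12 libraries (vertical axis), for genes of at least 10 CPM in 5 equally large bins of GC content of their longest transcript (horizontal axis, percent). Thick numbered lines are libraries 2 and 3 (Ctrl) and 9 and 10 (Ctrl60). They fan out to between 0.11 and 0.36 at low GC content, whereas all libraries lie within 0.07 of 0 in the 3 bins of higher GC content.

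The single comparison set Ctrl60 (60 min at 1 g, HEPES in the column names) against Ctrl (15 min at 1 g). Standing time, buffer and library number change together in it and cannot be told apart. Few genes passed the test, and EGR1 changed most among them. Of 16109 genes that entered edgeR's quasi-likelihood test, 2 passed an adjusted p of 0.05 (0.0124% of the genes tested), 1 higher in Ctrl60 (0.00621%) and 1 lower (0.00621%). At an unadjusted p under 0.05 there were 578 genes (3.59%). The median log2 fold change over all genes tested was 0.00, with quartiles of -0.05 and 0.04.

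EGR1 is an immediate early gene, a transcription factor gene that is switched on within minutes of growth factor, antigen receptor or stress signals, without new protein synthesis (chromosome 5, bases 138465479 to 138469303 of GRCh38, plus strand; ENSG00000120738). It had 188 to 315 counts in the Ctrl libraries and 469 to 581 counts in the Ctrl60 libraries. In CPM, Ctrl ran from 6.88 over a median of 7.93 to 8.99, and Ctrl60 from 17.0 over 17.8 to 18.3. The groups did not overlap, and the lowest Ctrl60 library lay far above the highest Ctrl library. The fold change was 2.23 (log2 fold change 1.16 ± 0.06, SE), with an adjusted p of 3.0e-07 in edgeR's test. A model that took the spread from 60 libraries of the 9 g experiment again gave a log2 fold change of 1.16. Its adjusted p of edgeR was 0.110, and the call was lost. Without library 75, a 9 g library, the same model gave an edgeR adjusted p of 2.7e-16. That setting was added after seeing the data. The 250 bases before the RefSeq start of EGR1 are shown (chr5:138465229-138465478, plus strand, GRCh38.p14). Capitals mark CArG boxes, the motif of serum response factor, in which CC and GG flank a run of A and T.

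EGR1: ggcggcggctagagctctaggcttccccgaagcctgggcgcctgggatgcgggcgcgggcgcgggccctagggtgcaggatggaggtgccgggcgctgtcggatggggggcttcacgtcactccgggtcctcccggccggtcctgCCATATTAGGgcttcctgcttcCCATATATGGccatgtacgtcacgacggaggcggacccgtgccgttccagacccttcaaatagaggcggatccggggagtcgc

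A CArG box was found in 1.16% of all 35116 RefSeq promoters of that length, on either strand, and 2 boxes in 11 promoters, that of EGR1 included. Of the other immediate early genes looked up that had a promoter, EGR2 held 1 box, in 1 of its 3 promoters, and the rest held none. MYC was not among the genes looked up. PHF13 and DNAJB1 held none. No match says only that these letters are not in this window.

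PHF13 (chromosome 1, bases 6613731 to 6624030, plus strand, ENSG00000116273) was lower in Ctrl60. It encodes a chromatin protein with a PHD finger that binds methylated histone H3. Ctrl ran from 67.9 over a median of 69.7 to 70.7 CPM and Ctrl60 from 54.6 over 57.3 to 60.9 CPM. The groups did not overlap. The log2 fold change was -0.28 ± 0.04 (SE), with an adjusted p of 0.0103 by edgeR. This call was lost when Ctrl library 1, 4 or 6 was left out, with edgeR adjusted p-values of 0.0580, 0.0521 and 0.0845. The log2 fold changes were then -0.275, -0.275 and -0.276.

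The next genes in each direction by p did not pass the adjusted threshold. DNAJB1, a co-chaperone gene of the heat shock response, had 140 to 151 CPM in Ctrl and 161 to 183 CPM in Ctrl60 (log2 fold change 0.23 ± 0.04, SE, edgeR adjusted p = 0.155). ANKRD37, a hypoxia-responsive gene, had 6.11 to 7.20 and 7.83 to 8.78 CPM (0.33 ± 0.06, edgeR adjusted p = 0.192). NR6A1 and HOMEZ, genes of a nuclear receptor and a homeobox protein, had log2 fold changes of 0.31 and 0.24. On the lower side stood TOB2, an antiproliferative gene (45.8 to 49.2 against 38.6 to 42.5 CPM, log2 fold change -0.23 ± 0.04, SE, edgeR adjusted p = 0.0836). The ubiquitin ligase gene SMURF1 (-0.21), ID3, an inhibitor of E proteins (-0.27), and PPP1R10, a phosphatase regulator gene (-0.20), came next. Libraries of the 2 groups did not overlap in any of these 8 genes, which were ranked by this same contrast. Each of them passed under at least 1 other setting, TOB2 in 7 of 21, SMURF1 in 6, ID3 and DNAJB1 in 5 each, PPP1R10 in 4, ANKRD37 and NR6A1 in 2 each and HOMEZ in 1. For TOB2 the adjusted p over these settings ran from 6.9e-06 to 0.440 (edgeR or DESeq2).

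**Figure D5:**
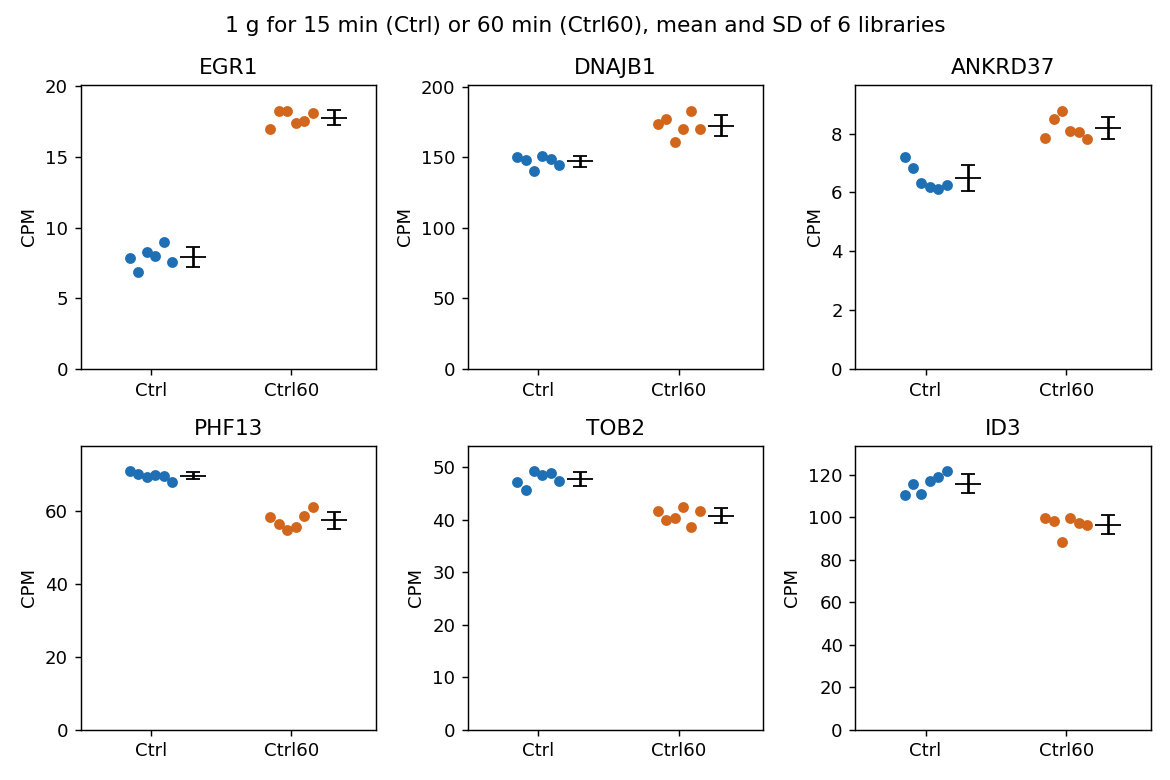
CPM of 6 genes by library (vertical axis from 0), with 6 Ctrl libraries (blue) and 6 Ctrl60 libraries (orange), and the mean with SD of each group in black. EGR1 separates the groups most clearly, from at most 8.99 to at least 17.0 CPM, while DNAJB1, ANKRD37, PHF13, TOB2 and ID3 differ by log2 fold changes of -0.28 to 0.33.

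The stress and early response lists held more small p-values than the 3.59% of all genes tested, but no further call. Of 16 immediate early genes tested, EGR1 passed, and 7 had an unadjusted p under 0.05, with a list median log2 fold change of 0.03 beside 0.00 over all genes. EGR3, a relative of EGR1, lay at 0.768 to 1.40 CPM in Ctrl and 1.48 to 1.84 CPM in Ctrl60 (log2 fold change 0.66 ± 0.16, SE, edgeR adjusted p = 0.622). MYC had 395 to 414 CPM in Ctrl and 367 to 390 in Ctrl60 (-0.10 ± 0.03, edgeR adjusted p = 0.915), and FOS stayed at 1.12 to 1.78 CPM over all libraries. Of 15 hypoxia genes tested, 6 had an unadjusted p under 0.05, with a median of 0.03, and of 10 heat shock genes 3, with a median of 0.05. No gene of either list passed. Of 9 sterol synthesis genes tested, 1 had an unadjusted p under 0.05, with a median of -0.01 and no call. These lists were chosen with results of the series known.

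No T cell gene was called, beside 0.0124% of all genes tested, and few had an unadjusted p under 0.05, beside 3.59% of all genes. Of 12 receptor genes tested, 0 had an unadjusted p under 0.05 and the median log2 fold change was 0.01. Among 19 surface receptors, 15 signalling genes and 18 lineage factors tested, 1 gene each had an unadjusted p under 0.05 (IL7R, LCP2 and NOTCH3), and the medians were -0.01, 0.01 and -0.01. In lists of this size such counts lie near the share of all genes. None of the 12 reference genes had an unadjusted p under 0.05, and their log2 fold changes lay between -0.03 and 0.09. Of 4 B cell markers tested, 2 low ones, BLNK and IGHM, had an unadjusted p under 0.05 and none passed, while CD79A had a p above it.

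Transcripts of the mitochondrial genome held a smaller share of the counts in Ctrl60, by a margin that did not pass the adjusted threshold. They made up 1.49% ± 0.103 (SD, n = 6) of the counts in Ctrl and 1.29% ± 0.0951 (SD, n = 6) in Ctrl60, with overlapping libraries. The difference of -0.202 percentage points had p = 0.0108 in a two-sided exact permutation test of 6 against 6 libraries, and 0.0974 after Benjamini-Hochberg adjustment over 9 library values. The smallest p this test allows is 0.00216. Without libraries 2, 3, 9 and 10 the difference was -0.232 percentage points (exact permutation p = 0.0571). Of 27 mitochondrial genes tested one by one, 26 had a log2 fold change below 0 (median -0.22, beside 0.00 over all genes tested). An unadjusted p under 0.05 was reached by 18 (3.59% of all genes did), but 0 passed the adjusted threshold of edgeR. These genes were counted in the same 12 libraries and are not independent of each other, so such counts of genes are not separate observations. The 27 included both ribosomal RNAs, whose log2 fold changes of -2.17 and -2.34 were the largest of all genes tested, with 1 of the 2 at an unadjusted p under 0.05. Their summed counts were 4207 in library 2 and 3577 in library 5 of Ctrl, against 22 to 1205 in the other 10 libraries. Without these RNAs, 24 of 25 genes lay below 0 (median -0.22), 17 had an unadjusted p under 0.05, and the share differed by -0.198 percentage points (exact permutation p = 0.0108). DESeq2 called 1, 2 were called without libraries 2, 3, 9 and 10, and 11 with 3 surrogate variables. The messenger RNA of MT-CO1, a subunit of cytochrome c oxidase, ran from 2504 over 2943 to 3160 CPM in Ctrl and from 2200 over 2407 to 2676 CPM in Ctrl60. MT-ND1, a subunit of complex I, ran from 1351 over 1560 to 1636 and from 1176 over 1313 to 1395 CPM.

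Of the replication-dependent histones, 59 of 61 tested genes had a log2 fold change below 0, but the median was small at -0.05, 4 had an unadjusted p under 0.05 and 0 were called, beside 3.59% and 0.0124% of all genes tested. These genes too were counted in the same libraries and are not independent of each other. The median was -0.03, with 50 of 61 genes below 0, without Ctrl library 6, and -0.08 without Ctrl library 3. Without libraries 2, 3, 9 and 10 it was -0.11, with 61 of 62 genes below 0. Their share of counts was 3.99% ± 0.187 in Ctrl and 3.87% ± 0.152 in Ctrl60 (SD, n = 6 each, exact permutation p = 0.229, adjusted 0.516). Without libraries 2, 3, 9 and 10 the difference was -0.270 percentage points (exact permutation p = 0.0571). Ribosomal protein genes held 6.72% ± 0.231 and 6.71% ± 0.260 (SD, n = 6 each, exact permutation p = 0.933). Structural RNAs, mostly 7SL, held 5.76% and 5.89% (exact permutation p = 0.483). Total counts, the number of genes with a count, the number of genes above 1 CPM, the share of the 10 most abundant genes and the slope against GC content gave exact permutation p-values from 0.110 to 0.918, and the smallest adjusted value of the 9 library values was the 0.0974 above. Without libraries 2, 3, 9 and 10, total counts differed by -3981490 and the number of genes with a count by -477.5, each with an exact permutation p of 0.0286, the smallest that 4 against 4 libraries allow.

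The number of calls differed between settings. It was 7 with total counts only, 8 with DESeq2 and 9 with a correction for GC content. It was 16 without libraries 2, 3, 9 and 10 and 178 (34 higher, 144 lower) with 3 surrogate variables. Each of these settings called EGR1 and PHF13. The surrogate variables were fitted to the 12 libraries with the groups known. The model of 60 libraries called PHF13 and TOB2 but not EGR1. Leaving out Ctrl library 1, 4 or 6 left EGR1 as the only call.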

How the data were processed

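RNA was sequenced from 12 libraries of Jurkat cells at 1 g (6 Ctrl, 6 Ctrl60). The authors deposited 1 table of raw counts of read pairs per gene, assigned on the reverse strand with Ensembl release 104 (GRCh38). The submitters' processing notes name Trim Galore 0.6.5, STAR 2.7.3a, featureCounts 2.0.1 and DESeq2 1.28.1, whereas the file header names featureCounts 2.0.3. Reads mapping to several places or overlapping 2 genes were not counted, which lowers near-identical copies and overlapping genes. Shared exon bases were computed from the exon coordinates in the table. The deposited length column gives, in bases, the merged exons of all annotated transcripts of each gene and was used for CPM per kb. The record of 1 gene, ANK2, was broken over 3 lines and left out. Symbols came from a name table, biotypes and GC content of the longest transcript from GENCODE release 29, and promoters from RefSeq (GRCh38.p14).

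Ctrl60 was compared with Ctrl by edgeR 4.0.16 in R 4.3.3 (TMM, filterByExpr with a minimum count of 10, quasi-likelihood F test, Benjamini-Hochberg adjustment, threshold 0.05), tested on simulated data first. Library values were compared by two-sided exact permutation tests in scipy 1.17.1. Alternatives were no filter, total counts only, RLE factors, DESeq2 1.42.0, a model of 60 libraries of the 9 g experiment, 3 surrogate variables (sva 3.50.0), a GC correction (lowess, span 0.3), and leaving out each library. Other levels or thresholds were tried for the descriptions. Named genes were the 20 highest by CPM and per kb, list members, calls and the 5 smallest p-values in each direction, and the 10 highest and lowest CVs, others being marked as chosen after their values were seen. Members and lists were chosen with earlier results of these data known. Some list members are not reported here.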

Additional observations from a re-analysis of the deposited data

Results flagged for a closer look

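In 6 of 64 groups of 6 libraries examined, 1 library lay apart from the others by Dixon's test, which flags about 1 group in 20 by chance. Of these 6, 4 concerned Ctrl60 library 9. Its ribosomal protein share was 6.19% (others 6.75% to 6.89%) and 13498 genes reached 1 CPM in it (others 13069 to 13124). NEAT1, a long nuclear RNA, stood at 81.3 CPM in it (others 28.2 to 41.7), and ID3 at 88.2 CPM (others 96.4 to 99.8). Ctrl library 2 had 27314458 counts (others 33857227 to 36083081). Ctrl60 library 12 had a share of 5.29% of 7SL, 7SK, small nuclear and small nucleolar RNA (others 5.87% to 6.11%). The causes were not tested.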

How the results depend on the processing

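Against 2 genes called, normalization by total counts gave 7, the Wald test of DESeq2 8, the GC correction 9 and 3 surrogate variables 178. Leaving out libraries 2, 3, 9 and 10 gave 16 and a model of 59 libraries without library 75 gave 5, both added after seeing the data. Leaving out each library gave 1 to 3 calls. No filter, RLE factors and the model of 60 libraries gave 2 each. In the last, EGR1 had an adjusted p of 0.110 (edgeR), at a log2 fold change of 1.16, and was called again without library 75, over all alternatives from 1.4e-57 to 0.110. With each library left out, the difference in total counts ranged from -4303831 (without Ctrl library 2, then with an exact permutation p under 0.05) to -2335639, and that in genes with a count from -573 (without Ctrl60 library 9, likewise) to -269. Without libraries 2, 3, 9 and 10, total counts differed by -3981490 and genes with a count by -477.5 (both then with an exact permutation p under 0.05), and the mitochondrial share by -0.232 percentage points (then above it), while leaving out the mitochondrial rRNAs kept it at -0.198 (all added after seeing the data). The median CV was 8.10% over genes of at least 1 CPM, where counts are lower. The 10 most abundant genes held 10.7% of counts, and 43.6% when counted per kb. None of the 10 genes with a call or among the smallest p-values in either direction changed direction. No paired analysis was possible because the groups share no replicate numbers. Depth limits levels under about 0.112 CPM in a single library (3 counts), and the lone table leaves RNAs with several copies uncertain.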
